A study of Homo sapiens with 26 samples.

Results

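H3K27ac and H3K4me1 ChIP-seq peaks were examined around the genes of the epidermal growth factor receptor (EGFR) system: the ligand genes *TGFA*, *AREG*, *EREG*, *EPGN*, *BTC* and *HBEGF*, and the receptor genes *EGFR*, *ERBB2* and *ERBB3*. A region was a member when it overlapped one of these 9 gene bodies or the 100 kb to either side on GRCh37. This gave 160 of 87608 H3K27ac regions and 176 of 110276 H3K4me1 regions. Of the 160 H3K27ac regions, 10 overlapped a promoter of one of the 9 genes (1000 bp upstream to 200 bp downstream of a start site), 22 overlapped the promoter of another gene and 128 were distal. All libraries came from HCT116, a line grown from a colorectal carcinoma that keeps functional p53. Parental cells (WT) had received Nutlin-3a, an inhibitor that keeps HDM2 from binding p53, for 1 h or 10 h, or the vehicle DMSO (0 h), and both marks were profiled in each. For H3K27ac there were also vehicle and 1 h libraries of a derived HCT116 line with a degron tag on the cohesin subunit RAD21 (the RAD21 line). In the study an auxin analogue triggers loss of the tagged protein. The sample labels do not state that treatment, but every peak name in the 4 lists of the RAD21 line carries the letters KD, and the study treats these libraries as RAD21 depleted. Each of the 8 groups held 2 lists of peaks, labelled replicates 1 and 2.

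The 6 ligands are made as membrane-bound precursors that sheddases, among them ADAM17, cut free. TGFA, AREG and EPGN bind EGFR, while EREG, BTC and HBEGF bind EGFR and ERBB4. ERBB2 has no ligand of its own and pairs with the other receptors, and ERBB3 needs a partner because its kinase is weak. In colorectal epithelium this system drives growth, and *AREG* and *EREG* are highly expressed in many colorectal tumours. H3K27ac marks active promoters and enhancers, and H3K4me1 marks enhancers whether or not they are active.

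Of the markers of other tissues, 7 of 8 had no H3K27ac peak at their promoter in any list (*PTPRC*, *CD3E*, *COL1A1*, *COL1A2*, *PDGFRB*, *VWF* and *ALB*), and *CD79A* had one in 1 list. Of 9 epithelial or intestinal markers, 6 were called in all 10 H3K27ac lists, among them *EPCAM*, *CDH1* and *CDX2*, while *KRT20*, *CDX1* and *VIL1* were called in none. The H3K27ac lists held 31640 to 49127 peaks and the H3K4me1 lists 84492 to 92943. One property of the lists ran across the groups. In 3 H3K27ac lists, both WT 0 h lists and WT 1 h replicate 1, the peak names lack the word input, and their peaks covered 30.7 to 31.9 Mb. The other 7 carry it, and their peaks covered 49.1 to 66.6 Mb. WT at 10 h against 0 h, and the RAD21 line against WT at 0 h, therefore compared one form of list with the other, and in these comparisons the form and the group cannot be told apart. WT 1 h holds 1 list of each form, which allowed values within a form to be given beside the results. In those the WT 1 h arm is 1 list. It has no spread of its own and was assumed to vary like the other 4 H3K27ac groups, which gave 4 residual degrees of freedom, so each such p-value rests on that assumption. A term for the form, where one was added, rests on the difference between the same 2 WT 1 h lists.

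Strength is given as a percentile: the place of a region among all regions of its list, ordered by −log10 p-value, with 100 for the strongest and 0 for a region with no peak. Differences between groups were tested on normal scores of these ranks with limma, over the 18757 H3K27ac regions called in all 10 lists, of which 49 were members, and over 60476 H3K4me1 regions, of which 113 were members. A score of 0 is the middle of these regions in a list. A difference of 1 equals 1 standard deviation of the scores, and each is printed with its standard error (SE). These differences are shifts in order within a list, not changes in the amount of a mark. The percentile counts all regions of a list and the score only those that every list holds, so the 2 can differ in direction between lists of unequal length, as they did for 2 of 68 called differences. The labels and the study call the 2 lists of a group biological replicates, without saying for these libraries whether the cultures were separate.

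Regions near *TGFA*, *BTC* and *ERBB2* that were stronger or newly called at 10 h included the only 3 of the 128 distal regions with a p53 response element of at most 2 mismatches within the 1000 bp around their median summit. The element was searched as 2 copies of a 10-base motif with no spacer, with the central C and G of each copy fixed, and this search was chosen after the values were seen. The 120 bases around each element are shown because they lie in the 3 regions described next, read 5′ to 3′ on the plus strand of GRCh37 with the 20-base element in capitals.
*TGFA* upstream region, chr2:70824172-70824291, 0 mismatches: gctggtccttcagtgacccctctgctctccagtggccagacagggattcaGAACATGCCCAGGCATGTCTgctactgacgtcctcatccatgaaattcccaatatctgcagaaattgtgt
*BTC* upstream region, chr4:75811843-75811962, 1 mismatch: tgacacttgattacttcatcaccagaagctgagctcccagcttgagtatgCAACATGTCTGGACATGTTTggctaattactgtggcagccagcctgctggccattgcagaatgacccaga
*ERBB2* downstream region, chr17:37906382-37906501, 2 mismatches: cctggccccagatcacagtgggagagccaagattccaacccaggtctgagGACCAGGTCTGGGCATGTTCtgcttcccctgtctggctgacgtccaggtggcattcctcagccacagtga

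An element with 0 mismatches was present in 0.243% of all 70379 distal H3K27ac regions outside the mitochondrial genome, one with at most 1 mismatch in 0.921% and one with at most 2 in 2.93%. Among the 128 distal member regions the shares were 0.781%, 1.56% and 2.34%. None of the 32 promoter regions of the windows held one. Among the 9255 distal regions called in both WT 10 h lists and neither WT 0 h list, 8.82% held an element with at most 2 mismatches, against 2 of the 12 such distal member regions. A match to the letters is a description of the sequence and not evidence of binding.

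*TGFA*, which encodes transforming growth factor alpha, had its strongest distal region 43.0 kb upstream of its canonical start site, at chr2:70822780-70825360, in no protein-coding gene. Its percentiles were 75.9 and 77.4 in WT at 0 h, 84.4 and 87.0 at 1 h, and 97.2 and 97.8 at 10 h. The RAD21 line stood at 87.5 and 88.3 with vehicle, and at 86.3 and 79.5 after 1 h. Both 10 h lists lay above all 8 others, including the 5 others whose peak names carry input. The rank score rose by 1.23 (SE 0.128) at 10 h (adjusted p = 0.000136, limma), whereas the 1 h difference of 0.34 (SE 0.128) did not pass (adjusted p = 0.0608). Of 46 named changes, this one alone kept its call in every alternative tried, including a term for the form of the peak names (1.27, adjusted p = 0.000305). Within the lists that carry input, both 10 h lists lay above the single list WT 1 h replicate 2, by 0.91 on average (adjusted p = 1.67e-05).

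The authors' fold enrichment at the summit of this region was 8.56 and 8.81 at 0 h, 9.78 and 28.8 at 1 h, and 55.7 and 84.4 at 10 h. The step from 9.78 to 28.8 within WT 1 h fell between the list without and the list with input in its names. Whether both forms had the same control is not given in the sources used here, so folds may not be comparable between them. Peaks covered 1453 and 1397 bp of the region at 0 h, 1507 and 2072 bp at 1 h, and 2360 and 2338 bp at 10 h. In the RAD21 line lists they covered 1659 to 2157 bp. The lists without input in their names had the smallest values, so covered lengths may not be comparable between the forms either. Over the same interval H3K4me1 stood in the top of its lists before treatment, with percentiles of 95.4 and 94.8 at 0 h, 94.1 and 89.4 at 1 h, and 94.9 and 96.2 at 10 h. The H3K4me1 difference at 10 h was 0.08 (SE 0.160, adjusted p = 0.948). The H3K27ac rank of this region thus moved past the test while the H3K4me1 rank of the region over it did not, and the difference between the marks was not tested.

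The *TGFA* promoter region (chr2:70779034-70782044, covering its first exon) had percentiles of 81.6 and 84.3 at 0 h, and of 84.9 and 86.8 after 1 h in WT, then of 92.7 and 92.8 after 10 h, with 81.2 to 85.3 in the 4 RAD21 line lists. Both 10 h lists again lay above the other 8. The rise of 0.35 (SE 0.111) passed narrowly (adjusted p = 0.0467), and it passed in 0 of 4 fits that each left out 1 list. Within the lists that carry input the difference from the single list WT 1 h replicate 2 was 0.32. The 250 bases before the first of 2 *TGFA* start sites in RefSeq (GRCh38.p14, minus strand, in the direction of transcription) are shown because this promoter had both its 10 h values above all others, with the GC box GGGCGG or its reverse complement CCGCCC in capitals.
*TGFA* promoter, chr2:70553827-70554076: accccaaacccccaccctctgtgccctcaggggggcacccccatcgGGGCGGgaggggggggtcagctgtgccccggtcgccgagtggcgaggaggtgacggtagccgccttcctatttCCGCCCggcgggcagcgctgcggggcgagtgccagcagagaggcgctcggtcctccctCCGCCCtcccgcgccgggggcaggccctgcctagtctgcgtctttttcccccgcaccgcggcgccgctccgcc

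The stretch was 75.6% G or C, beside a median of 58.0% over promoters, and held 3 GC boxes and no TATA box TATAAA. Over 35116 RefSeq promoters of the same length, 42.6% held a GC box and 6.8% a TATA box. Promoters of 8 of the 9 genes were found in the table. *HBEGF* had 5 GC boxes and *EGFR* 2 at the first of its start sites, while the second start sites of *TGFA* and *EGFR* had none. *EREG* and *EPGN* held 1 TATA box each, and the second *EGFR* site held 2. *AREG* carried 1 TATA box, 1 GC box and 1 cAMP response element TGACGTCA, which 1.65% of promoters held. The *AREG* promoter is shown for contrast, with these 3 motifs in capitals on the plus strand.
*AREG* promoter, chr4:74444886-74445135: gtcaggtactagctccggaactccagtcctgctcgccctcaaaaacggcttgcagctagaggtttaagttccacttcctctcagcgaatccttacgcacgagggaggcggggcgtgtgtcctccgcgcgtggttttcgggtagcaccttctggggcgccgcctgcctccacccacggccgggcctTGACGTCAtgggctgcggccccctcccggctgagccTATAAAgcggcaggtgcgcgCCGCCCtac

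Further regions of the *TGFA* window were also higher in rank at 10 h. An intronic region 29.0 kb into the gene (chr2:70750296-70753397) had percentiles of 62.1 and 59.4 at 0 h, 70.2 and 78.8 at 1 h, and 85.2 and 83.9 at 10 h. It rose by 0.45 (SE 0.116, adjusted p = 0.0118) at 1 h and by 0.66 (SE 0.116, adjusted p = 0.00316) at 10 h, and the RAD21 line lists lay between 68.4 and 71.5. With a term for the form of the peak names, the 10 h value was 0.55 with an adjusted p of 0.1. A region 16.3 kb upstream (chr2:70796501-70798239) went from 28.2 and 18.7 at 0 h to 63.0 and 64.7 at 10 h, a rise of 1.18 (SE 0.279, adjusted p = 0.0132) that passed in 1 of 4 fits without 1 list and was 1.06 with that term (adjusted p = 0.253). The region 12 kb into the gene differed by 0.63 (SE 0.233) without passing (adjusted p = 0.0739). In all, the *TGFA* window held 13 H3K27ac regions, 12 of them distal, and 5 were called in every list. The 34 H3K4me1 regions were spread over the whole window, and 23 of them were called in every list.

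**Figure D1:**
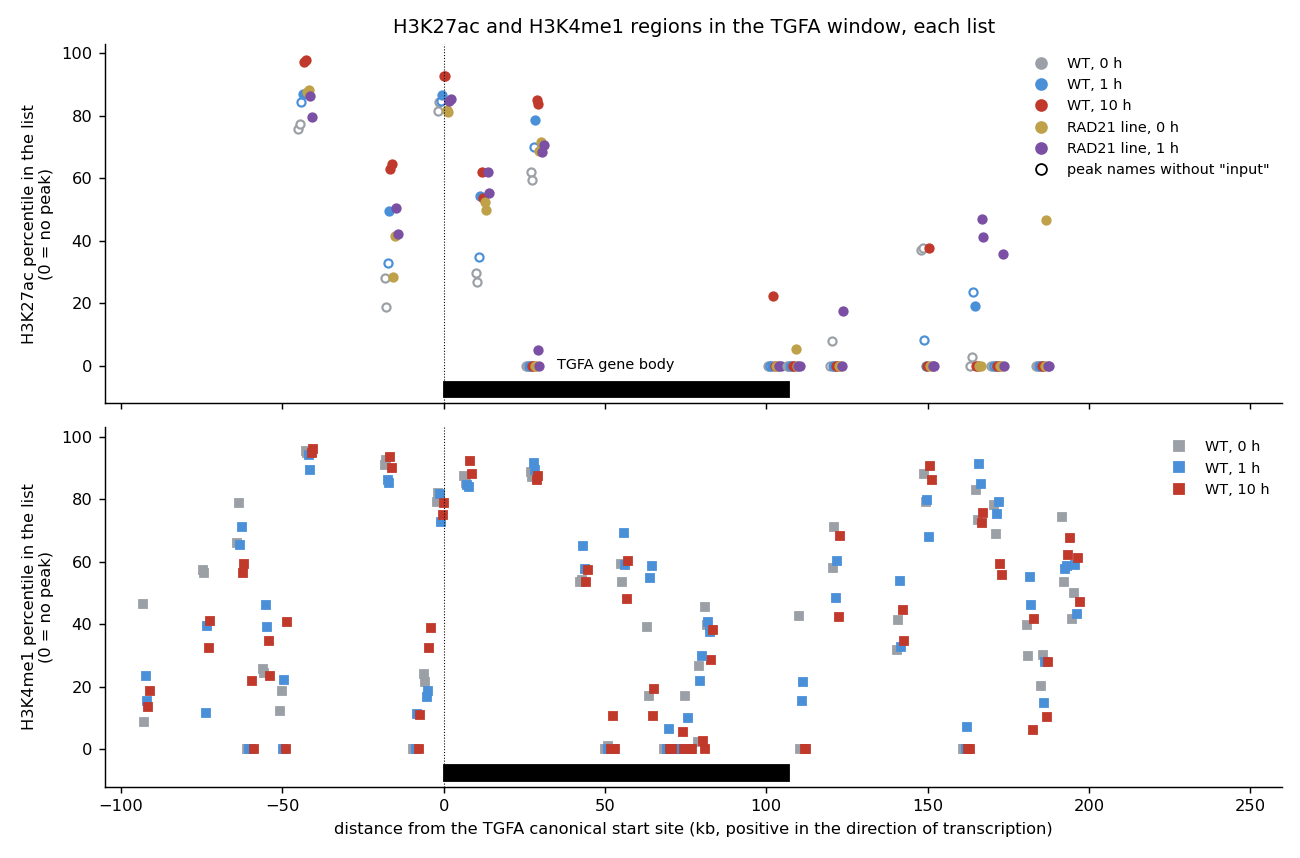
Percentile of each H3K27ac region (top, 10 lists) and H3K4me1 region (bottom, 6 lists) of the *TGFA* window against distance from the canonical start site in kb, positive in the direction of transcription. Each point is 1 list, open points are lists whose peak names lack input, the black bar is the gene body, and small sideways shifts separate the lists. The 10 h points of H3K27ac at 43.0 kb upstream sit at 97.2 and 97.8, while H3K4me1 there stayed between 89.4 and 96.2.

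The region of *BTC* (betacellulin) with an element lay 92.3 kb upstream, at chr4:75811450-75812269, in no protein-coding gene. It was called for H3K27ac in both WT 10 h lists, with percentiles of 52.8 and 55.5 and folds of 5.19 and 5.96, and in none of the 8 other lists. H3K4me1 over it had percentiles of 20.9 and 34.6 at 0 h, no peak in either 1 h list, and 72.4 and 57.2 at 10 h. The *ERBB2* region lay 50.0 kb downstream of the start site, at chr17:37905805-37907378, past the 3′ end of the gene. It had no H3K27ac peak in the 3 lists without input in their names, which include both 0 h lists, and was called in all 7 others. The percentiles there were 1.6 in WT 1 h replicate 2, 66.2 and 60.1 at 10 h, and 33.7 to 42.0 in the 4 RAD21 line lists. H3K4me1 was called there in both lists at every time point. Both regions kept their 10 h call when a peak had to reach a −log10 q-value of 5.

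At 10 h, 12 of 160 member regions (7.5%) were called in both lists and in neither 0 h list, against 11.4% of all regions, so the windows did not exceed the background of new peaks. They were all distal and lay nearest to *ERBB3* (5), *EGFR* (3), *AREG* (2), *ERBB2* (1) and *BTC* (1), and none was in the *TGFA* or *HBEGF* window. In the opposite direction 1 region, 23 kb upstream of *EGFR*, was called in both 0 h lists and neither 10 h list, against a background of 1.9%. It was also called in both WT 1 h lists (19.8 and 33.3). When a peak had to reach a −log10 q-value of 5, the 12 became 5: the *BTC* and *ERBB2* regions above, *EGFR* regions 59.9 kb and 153.9 kb into the gene, and an *ERBB3* window region 88.6 kb downstream. The *EGFR* region at 153.9 kb (chr7:55239725-55241313, over an exon) was called in the 10 h lists alone (61.3 and 50.7) and had no H3K4me1 peak in any list. The one at 59.9 kb was absent from the 3 lists without input in their names and present in all 7 others (40.4 to 55.3). Of the 12, 7 had H3K4me1 in both 0 h lists and 5 had none in any list, and of the 9255 distal regions of the same kind genome-wide 40.8% had it in both 0 h lists. The *ERBB3* window regions at 85.3, 87.5, 88.6 and 92.6 kb lay within *SMARCC2* and were among the 5 without H3K4me1.

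Among the 49 member regions called in every list, 15 (30.6%) changed rank at 10 h, 10 up and 5 down, against 18.3% of all regions. For distal regions the count was 8 up and 1 down of 22, with a median difference of 0.42, where the median over all distal regions tested was 0.08. Of the 6668 distal regions tested genome-wide, 1053 rose. With a term for the form of the peak names, 2 member regions were called. Within the lists that carry input, 18 members were called between 10 h and the single list WT 1 h replicate 2, 9 of them higher, and 33.6% of all regions were called. Of the 15, 6 were called in both comparisons.

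**Figure D2:**
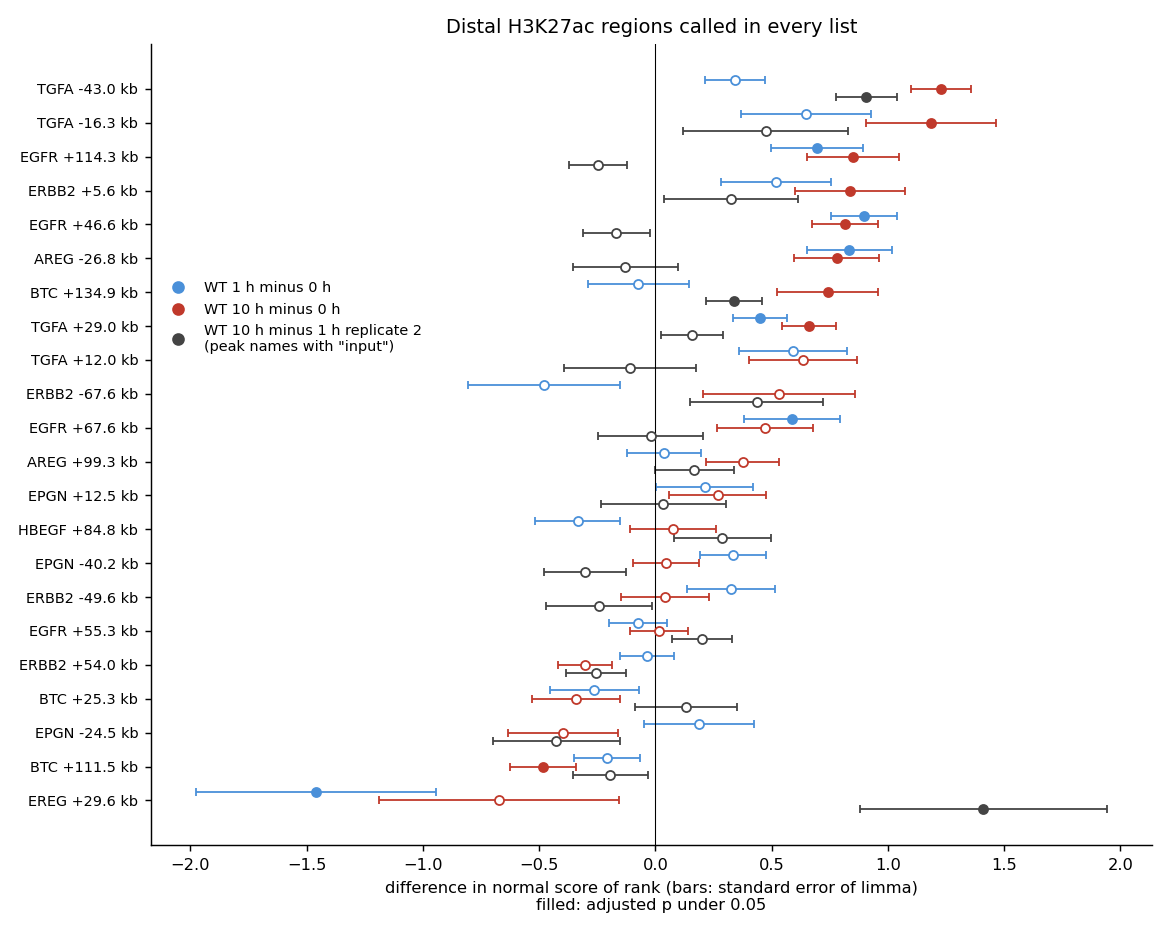
Difference in rank score (x axis, normal score units, with the SE from limma) of the 22 distal H3K27ac regions called in every list. Blue is WT 1 h minus 0 h, red is WT 10 h minus 0 h and grey is WT 10 h minus 1 h replicate 2, and filled points passed an adjusted p of 0.05. The region 43.0 kb upstream of *TGFA* heads the 10 h order at 1.23 and is 0.91 in the grey comparison, whereas both *EGFR* regions at 46.6 and 114.3 kb fall below 0 there.

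*EGFR*, the receptor of all 6 ligands, rose in H3K27ac rank at its promoter at 1 h. Its promoter region (chr7:55086272-55088796) started at percentiles of 74.4 and 74.2 in WT, stood at 85.1 and 88.9 after 1 h, and at 82.2 and 81.7 after 10 h. It rose by 0.52 (SE 0.115, adjusted p = 0.00549) at 1 h and differed by −0.03 (SE 0.115, adjusted p = 0.882) at 10 h. Within the lists without input, the single list 1 h replicate 1 lay 0.50 above 0 h (adjusted p = 0.00471). The 4 RAD21 line lists lay between 72.4 and 77.6, below both WT 1 h lists, and the RAD21 line was lower than WT at 1 h by 0.67 (SE 0.115, adjusted p = 0.00412). At 0 h the RAD21 line differed from WT by −0.32, with values from −0.38 to −0.27 when 1 list was left out. That call was kept in 0 of 7 alternatives, and it compared one form of list with the other. The difference of the 1 h changes between the lines did not pass at this promoter. An intronic region 46.6 kb into *EGFR* (chr7:55130512-55135195) had percentiles of 65.9 and 65.1 at 0 h, 84.3 and 90.4 at 1 h, and 92.0 and 86.9 at 10 h. It rose by 0.895 (SE 0.142, adjusted p = 0.000858) at 1 h, and by 0.82 (SE 0.142, adjusted p = 0.00302) at 10 h. Within the lists without input the 1 h value, from the single list 1 h replicate 1, was 0.805 (adjusted p = 0.000201). Within the lists that carry input, 10 h lay 0.17 below 1 h replicate 2 (adjusted p = 0.389). The intronic region at 114.3 kb, 8377 bp wide, went from 77.7 and 78.6 to 84.2 and 96.6 at 1 h and 95.8 and 95.0 at 10 h. Its 1 h rise of 0.695 (adjusted p = 0.0189) was 0.29 within the lists without input (adjusted p = 0.0727), that is without WT 1 h replicate 2, and it passed in 1 of 4 fits without 1 list. The 10 h rise of 0.85 (adjusted p = 0.012) passed in none of the 4, and against the single list WT 1 h replicate 2 the value was −0.25 (adjusted p = 0.128). A second promoter region of *EGFR*, 90.8 kb into the gene, was weaker (33.0 to 63.8) and passed no contrast.

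At 1 h as a whole, 15 of the 49 members tested (30.6%) changed rank in WT, 10 up and 5 down, close to the 29.1% of all regions. Distal members made 5 up and 1 down of 22, with a median difference of 0.27, where the median over all distal regions tested was −0.02. When regions were ranked by fold enrichment instead, limma called 0 members and 0 regions genome-wide at 1 h, with 12 members and 3693 regions at an unadjusted p under 0.05. Called at 1 h and not at 0 h were 2 member regions (1.25%, background 1.51%), 20.2 kb upstream of *ERBB3* and 23.3 kb downstream of the *HBEGF* start site. Called at 0 h and not at 1 h was 1 region (background 1.32%).

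*EREG*, *EPGN* and *AREG* lie side by side on chromosome 4, so their windows share 16 H3K27ac regions. The *EREG* promoter region, for epiregulin, was a domain of 23152 bp (chr4:75226732-75249883) over most of the gene. In WT its percentiles stood at 62.0 and 64.1 with vehicle, at 68.1 and 91.5 after 1 h, and at 92.7 and 91.5 after 10 h, with 90.1 and 91.6 at 0 h and 78.1 and 81.8 at 1 h in the RAD21 line. The 3 lists without input in their names were the 3 lowest, and their peaks covered 4521 to 5215 bp of the domain, against 16043 to 23041 bp in the other 7. The 10 h rise of 1.10 (SE 0.215, adjusted p = 0.00524) was −0.06 against WT 1 h replicate 2 (adjusted p = 0.738). The 1 h rise of 0.695 (adjusted p = 0.028) went from 0.23 without WT 1 h replicate 2 to 1.16 without replicate 1, and passed in 1 of 4 fits without 1 list. H3K4me1 over the domain was high throughout, from 94.5 to 98.0.

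The *AREG* promoter region, for amphiregulin (chr4:75309836-75317778), had percentiles of 88.8 and 83.7 at 0 h, 81.9 and 84.9 at 1 h, and 89.5 and 86.7 at 10 h in WT, and these groups overlapped. In the RAD21 line it went from 79.7 and 84.0 at 0 h to 88.5 and 92.5 at 1 h, a rise of 0.54 (SE 0.135, adjusted p = 0.0106). GRCh37 holds a near-identical copy of *AREG* at chr4:75480629-75490481, and 93.0% of the 50-base words of the gene recur there. H3K27ac peaks formed 3 regions that overlap that copy. Reads of *AREG* may have been split with the copy or dropped, so the peaks of *AREG* are uncertain. The region 26.8 kb upstream of *AREG* (chr4:75280876-75285201), inside the windows of all 3 genes, went from 30.4 and 28.4 at 0 h to 43.3 and 58.3 at 1 h and to 65.5 and 57.7 at 10 h. It rose by 0.83 (SE 0.182, adjusted p = 0.00494) at 1 h, and was 0.76 for the single 1 h list within those without input (adjusted p = 0.0134). The *EPGN* promoter had no H3K27ac peak in any list, although H3K4me1 was called over it in all 6 lists with percentiles of 47.5 to 77.4.

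The *BTC* promoter lay between 66.0 and 76.4 in all 10 lists, and its rank score at 10 h differed from that at 0 h by −0.42 (SE 0.130, adjusted p = 0.0406), a call that was lost without any 1 of the 4 lists compared. Its mean percentile was 71.6 at 0 h and 73.2 at 10 h, the opposite direction, so no direction is drawn for it. The *HBEGF* promoter ranged from 50.4 to 71.7, the *ERBB3* promoter from 66.0 to 81.4, and the 2 *ERBB2* promoter regions from 66.6 to 85.3 and from 77.8 to 86.6, and none of these passed a WT time contrast. At both *HBEGF* and *ERBB3* the 3 lowest values were those of the 3 lists without input. Over the 10 promoter regions of the 9 genes, 2 had a higher score at 1 h and 0 a lower one (*EGFR* and *EREG*), and 2 a higher (*TGFA* and *EREG*) and 1 a lower one (*BTC*) at 10 h, beside 29.1% and 18.3% of all regions called. The *EREG* calls at both times moved with the form of the lists, as above. Of the 22 promoter regions of neighbouring genes, 17 were tested, and 7 were called at 1 h, 3 up and 4 down, and 3 at 10 h, all down, against the same backgrounds. An *ERBB2* region over an exon 5.6 kb downstream of its start site went from 37.2 and 21.0 to 63.1 and 62.0 at 10 h (0.84, SE 0.237, adjusted p = 0.0284), and reached 0.32 within the lists that carry input (adjusted p = 0.413).

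**Figure D3:**
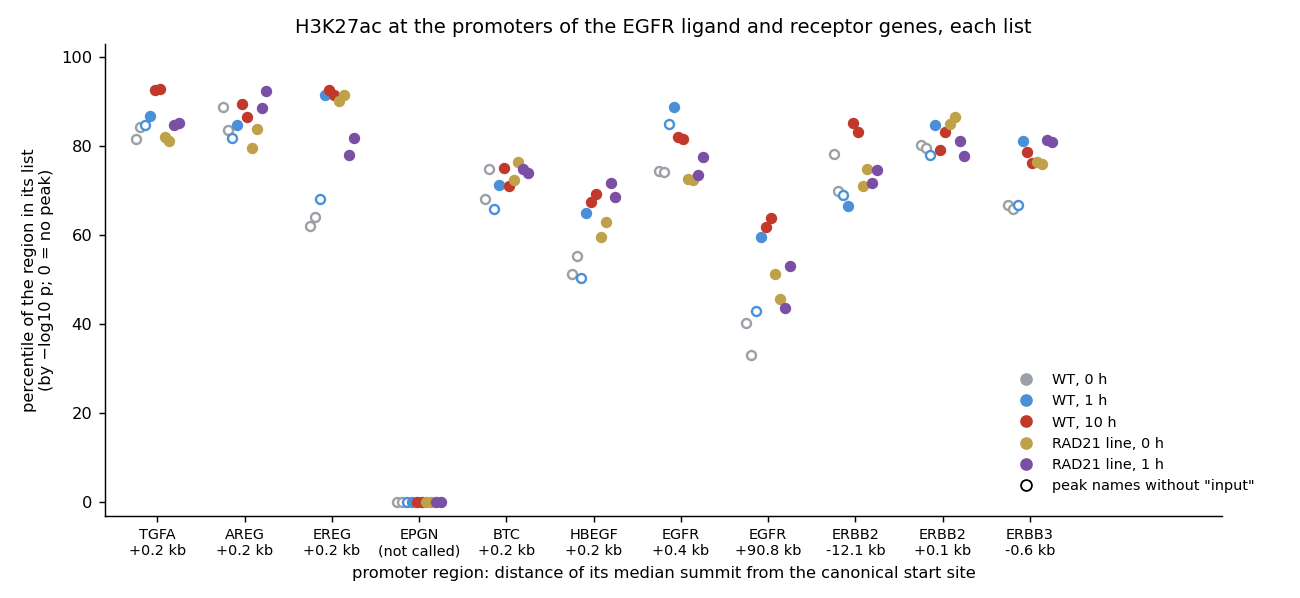
H3K27ac percentile (y axis, 0 where no peak was called) of each promoter region of the 9 genes in each of the 10 lists, coloured by group, with open points for lists whose peak names lack input. Both *TGFA* points at 10 h (92.7 and 92.8) lie above all others of that gene, the *EGFR* points at +0.4 kb are highest at 1 h in WT, and *EREG* separates the open points from the filled ones.

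H3K4me1 ranks gave no member call. Of 113 member regions tested, 0 passed at 1 h (0.0%, background 0.595%) and 0 at 10 h (background 0.638%) by limma, with 19 and 4 at an unadjusted p under 0.05. Ranking by fold also called 0 members at either time, and 0 were called with a replicate block. Called in both 1 h lists and neither 0 h list were 5 of 176 H3K4me1 regions (background 3.3%), with 2 in the opposite direction (background 1.75%), among them the *BTC* region with the p53 element. At 10 h the counts were 2 (background 2.63%) and 3 (background 2.29%). None of these calls was kept when a peak had to reach a −log10 q-value of 5. Of the 22 distal H3K27ac regions called in every list, all 22 had H3K4me1 in both lists at every time point, as had 99.1% of the 6668 such regions genome-wide.

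Distal active enhancers were counted as distal regions with H3K27ac in both lists of a time point and with an overlapping H3K4me1 region that both lists of that time also held. The windows held 26 at 0 h, 30 at 1 h and 33 at 10 h, and 39 at any time. Genome-wide the counts per time were 11228, 10951 and 14495. Of the 39 in the windows, 23 (59.0%) were present at all 3 time points, compared with 44.8% of 18052 genome-wide, and 8 (20.5%) at 10 h alone, compared with 26.8%. The H3K27ac lists of 0 h lack input in their names and those of 10 h carry it, with 1 of each at 1 h. Time and form thus cannot be told apart between 0 h and 10 h, for single genes too. *EGFR* went from 5 to 6 to 7 and *HBEGF* from 2 to 4 to 4, whereas *TGFA* went from 5 to 5 to 4. No active enhancer of the *TGFA* window was found at 10 h alone. The *ERBB3* window held 0, 1 and 1.

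**Figure D4:**
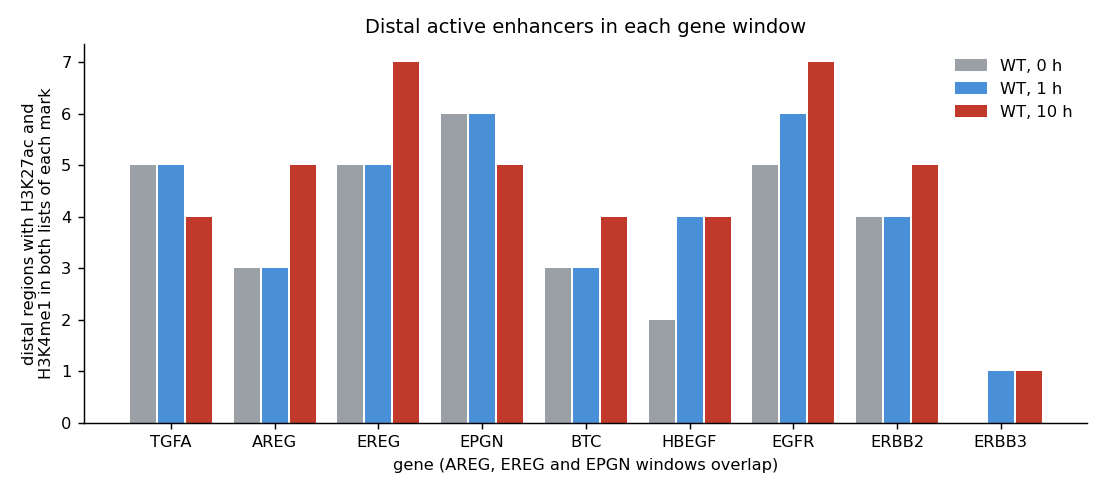
Number of distal active enhancers (y axis) in the window of each gene in WT, by time. The *EREG* and *EGFR* windows reach 7 at 10 h, *TGFA* has 5, 5 and 4 and *ERBB3* holds at most 1, and the *AREG*, *EREG* and *EPGN* windows share regions. The H3K27ac lists of 0 h lack input in their peak names and those of 10 h carry it.

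The RAD21 line allowed the 1 h response to be compared with that of WT. In the RAD21 line itself, 12 of 49 members (24.5%) changed rank at 1 h, 7 up and 5 down, against 27.7% of all regions. Called at 1 h alone were 11 of 160 regions (6.88%, background 4.61%), and at 0 h alone 4 (2.5%, background 2.87%). Of the 11, 4 lay in the stretch from *EREG* to *AREG*, at 20.6, 22.7 and 25.3 kb past the *EREG* start site and 36.3 kb upstream of *AREG*, and 1 lay 8.5 kb past the *AREG* start site. The *HBEGF* window gained a region 47.9 kb downstream of the start site (47.2 and 42.2, and 0 in the other 8 lists). The *TGFA* window gained one at 165.3 kb, past the 3′ end of the gene (46.9 and 41.3), which WT held in both 1 h lists (23.5 and 19.3).

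Before Nutlin-3a, 18 of 49 members (36.7%) differed in rank between the RAD21 line and WT, 9 higher and 9 lower, against 37.5% of all regions. The region 26.8 kb upstream of *AREG* was higher in the RAD21 line by 1.195 (SE 0.182, adjusted p = 0.000279), with percentiles of 63.5 and 63.0 against 30.4 and 28.4 in WT. The term for the form of the peak names left this at 1.04 (adjusted p = 0.0196). A *PFDN1* region 84.8 kb downstream of the *HBEGF* start site was higher by 0.80 at 0 h (SE 0.184, adjusted p = 0.00446) and by 0.97 at 1 h (SE 0.184, adjusted p = 0.00643), although the 0 h value with that term was 0.56 (adjusted p = 0.18). At 1 h, 8 of 49 members (16.3%) differed between the lines, 3 higher and 5 lower in the RAD21 line, against 11.8%. Called in the RAD21 line alone were 9 regions at 0 h (background 5.28%) and 5 at 1 h (background 3.23%), and in WT alone 4 (background 2.83%) and 1 (background 1.15%). A region 77.5 kb upstream of *EPGN*, in an intron of *MTHFD2L*, was called in 5 of 6 WT lists (20.2 to 31.1) and in 0 of 4 RAD21 line lists.

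The 1 h change itself differed between the lines for 16 of 49 members (32.7%), 7 more positive and 9 more negative in the RAD21 line, against 22.7% of all regions. At the region 43.0 kb upstream of *TGFA*, the 4 RAD21 line lists went from 0.73 and 0.72 to 0.64 and 0.30 on the score, while WT went from 0.31 and 0.39 to 0.71 and 0.67. The difference in change was −0.60 (SE 0.181, adjusted p = 0.0307), and it passed in 3 of 8 fits that each left out 1 list, with values from −0.77 to −0.43 and the smallest size without RAD21 line 1 h replicate 2. The *EGFR* region at 46.6 kb rose by 0.895 in WT and differed by 0.085 in the RAD21 line (SE 0.142, adjusted p = 0.691), a difference of −0.81 (SE 0.200, adjusted p = 0.0117). The *EREG* promoter domain fell by 0.62 in the RAD21 line (SE 0.215, adjusted p = 0.0474) and rose by 0.695 in WT, a difference of −1.31 (SE 0.304, adjusted p = 0.00816). Its fall in the RAD21 line passed in 0 of 4 fits without 1 list, with values from −0.72 to −0.52, and its WT rise in 1 of 4, as above. The *AREG* promoter went the opposite way, at 0.76 (SE 0.191, adjusted p = 0.0125). The WT 1 h lists were of both forms, so the same difference was taken with WT 1 h replicate 1 alone, a single list whose spread was assumed as above. It was −0.62 for *TGFA*, −0.72 for *EGFR*, −0.84 for *EREG* and 0.74 for *AREG*, with adjusted p-values of 0.00705, 0.00476, 0.000284 and 0.00287. When regions were ranked by fold, limma called 0 regions in this contrast, with 8 members and 2608 regions at an unadjusted p under 0.05.

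**Figure D5:**
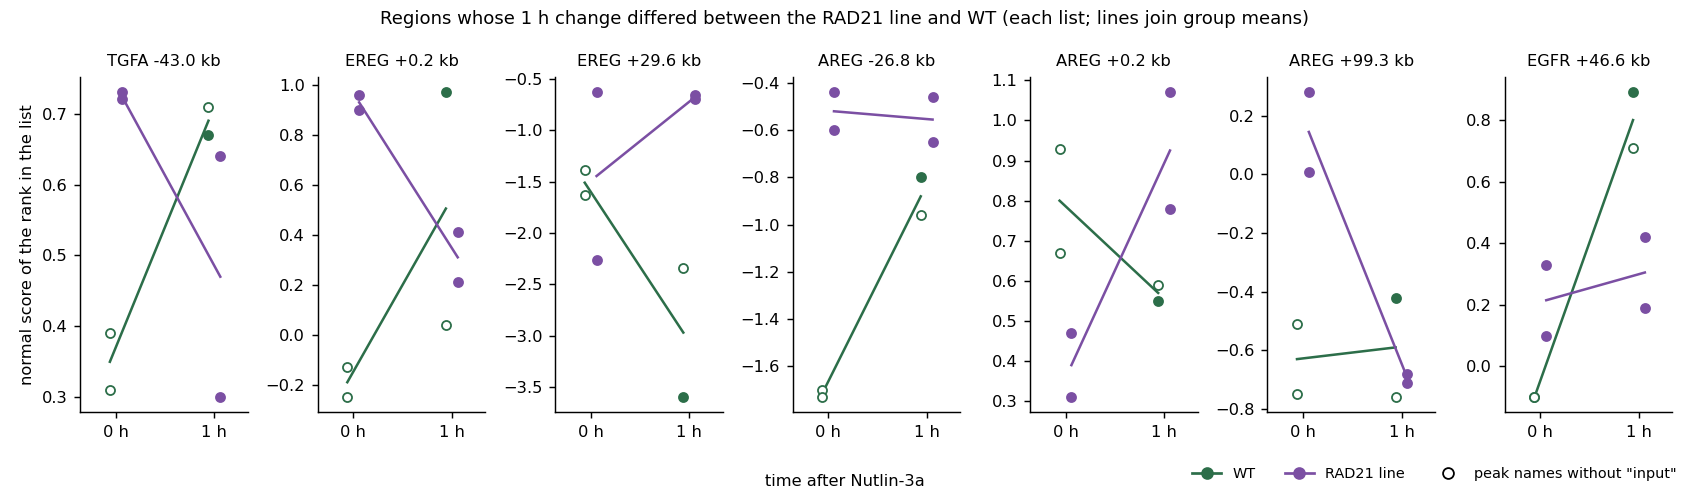
Normal score of the rank (y axis, a separate scale per panel) at 0 h and 1 h in WT (green) and the RAD21 line (purple) for the 7 named regions whose 1 h change differed between the lines. Points are single lists, lines join the group means, and open points are lists whose peak names lack input. The *TGFA* region at −43.0 kb goes from 0.31 and 0.39 to 0.71 and 0.67 in WT and from 0.73 and 0.72 to 0.64 and 0.30 in the RAD21 line.

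The other genes of the pathway were read at their promoters, as 23 genes in all. Of these, 16 had H3K27ac in all 10 lists and 4 in none (*EGF*, *NRG2*, *NRG3* and the receptor gene *ERBB4*). At 10 h, 3 of 16 promoters rose and 0 fell, beside 18.3% of all regions called in either direction: *ERRFI1*, whose product inhibits EGFR (0.76, SE 0.184, adjusted p = 0.0147), *DUSP4*, a phosphatase of MAP kinases (0.89, SE 0.274, adjusted p = 0.0389), and *SHC1*, an adaptor (0.65, SE 0.203, adjusted p = 0.0418). Against the single list WT 1 h replicate 2, which also carries input, the 10 h difference was −0.13 for *ERRFI1* (adjusted p = 0.446), 0.01 for *DUSP4* (adjusted p = 0.967) and 0.93 for *SHC1* (adjusted p = 6.98e-05). At 1 h, 4 rose and 4 fell, against 29.1% of all regions. *DUSP5*, *DUSP6*, *ERRFI1* and *RHBDF2* rose, and *GAB1*, *SHC1*, *CBL* and *ADAM17* fell. Within the lists without input, where 1 h is the single list replicate 1, the values of *DUSP5*, *DUSP6* and *ERRFI1* were 0.26, 0.17 and 0.17, while that of *RHBDF2* was 0.66. Those of *GAB1*, *SHC1*, *CBL* and *ADAM17* were −0.54, −0.94, −0.35 and −0.61. In the RAD21 line 5 rose and 1 fell at 1 h, against 27.7%. *CBL*, a ubiquitin ligase that turns over EGFR, rose by 1.00 there (SE 0.131, adjusted p = 0.000169), and *DUSP6* fell by 1.02 (SE 0.228, adjusted p = 0.00536). The change of *CBL* differed between the lines by 1.42 (SE 0.185, adjusted p = 0.000229), and that of *DUSP6* by −1.68 (SE 0.323, adjusted p = 0.00275).

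TGANTCA, the AP-1 motif, was read on either strand in the same 1000 bp windows, and it reads the same on both. It was present in 19 of the 22 distal member regions called in every list (86.4%), beside 68.2% of the 6668 such regions genome-wide, and in 37.5% of all 128 distal members, beside 36.9%. All 8 distal members that rose in rank at 10 h held it, as did 71.2% of the 1053 such regions genome-wide. Among 13188 protein-coding genes with H3K27ac at a promoter, the 5 whose promoter percentile over the 10 lists was most like that of *TGFA* were *ZBTB17* (Pearson r = 0.964), *ATP5F1C* and *KIN* (0.955 each), *TRIB2* (0.953) and *SPINT1* (0.95). For *EREG* the closest were *NTSR1* (0.994), *PCSK5* and *MYEOV* (0.982 each), and for *EGFR* they were *TSKU* (0.955), *KRR1* (0.95) and *NPTN* (0.947). For *AREG* they were *DUSP22*, *DIPK1B* and *TICAM1* (0.92 to 0.912), for *BTC* *CADPS2*, *PXYLP1* and *MAP2K5* (0.918 to 0.887), and for *HBEGF* *BLVRB*, *SPTBN4* and *BCL7C* (0.976 to 0.973). For *ERBB2* they were *ODAD3*, *PRKCSH* and *SIK2* (0.917 to 0.895), and for *ERBB3* *KCMF1*, *ABCC2* and *ANKRD13B* (0.994 to 0.982). Genes with a promoter region in common were listed separately. *ATP5F1C* and *KIN* had the same r and the same mean percentile (82.3), as had *BLVRB* and *SPTBN4* (85.7) and *ODAD3* and *PRKCSH* (91.0). These correlations describe 10 lists that differ in form as well as in group.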

How the data were processed

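H3K27ac and H3K4me1 peak lists of 16 ChIP-seq libraries were used, and 10 input libraries were not analysed here. The authors trimmed reads (Trim Galore 0.6.6), aligned them to GRCh37.p13 (Bowtie2 2.3.2) and, by the study's methods, called peaks in each library against input (MACS2 2.2.7.1). Whether the 3 H3K27ac lists without input in their peak names had the same control and settings is not given in the sources used here, so folds and ranks may not be comparable between the 2 forms. The deposited lists give for each peak a fold enrichment, a −log10 p-value and a −log10 q-value as MACS2 wrote them, with narrow peaks for H3K27ac and broad peaks for H3K4me1. The study set a minimum depth for each mark, but read counts are not in these lists. The depth of single libraries was not used here, and the count test of the study could not be run.

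For each mark, overlapping peaks from its lists were joined to form regions. In each list the regions were ranked by −log10 p-value, and ranks over the regions called in every list were turned into normal scores. These were tested with limma 3.58.1 (R 4.3.3) over all groups of the mark, with Benjamini-Hochberg adjustment over all regions at 0.05 and 5 residual degrees of freedom for H3K27ac and 3 for H3K4me1. A region was called only in one group when both its lists and neither of the other group held a peak. The test was tried on simulated data first. Groups and replicate numbers came from the sample labels.

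Named regions were the promoters of the 9 genes and, per gene, the 2 distal regions of highest mean percentile and at most 3 each of those called only in one group and of those past the test. Regions named outside this rule were chosen after their values were seen, as were the motif searches. The genes, windows and pathway list were chosen with earlier results of these data known. Alternatives ranked by fold, added the replicate number or the form of the peak names, left out each list, and changed the window, threshold and overlap. Values within one form of peak name, pathway promoters included, were added after the data were seen. Python 3.11.15, pandas 2.3.3, numpy 2.4.6, pysam 0.24.0 and matplotlib 3.10.9 were used.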

Additional observations from a re-analysis of the deposited data

Results flagged for a closer look

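For 7 named regions the 1 h change of the H3K27ac rank differed between the RAD21 line and WT by a direct test of that difference (limma, change in the RAD21 line minus change in WT, adjusted over all regions). The difference was −0.60 (SE 0.181, adjusted p = 0.0307) 43.0 kb upstream of *TGFA*, −1.31 (SE 0.304, adjusted p = 0.00816) at the *EREG* promoter domain and −0.81 (SE 0.200, adjusted p = 0.0117) 46.6 kb into *EGFR*. It was −0.87 (SE 0.258, adjusted p = 0.0291) 26.8 kb upstream of *AREG* and −0.88 (SE 0.223, adjusted p = 0.0133) 99.3 kb downstream of the *AREG* start site. It was 0.76 (SE 0.191, adjusted p = 0.0125) at the *AREG* promoter and 2.23 (SE 0.730, adjusted p = 0.0429) 29.6 kb past the *EREG* start site, where WT 1 h replicate 2 stood at a percentile of 0.7 and RAD21 line 0 h replicates 1 and 2 at 59.4 and 23.4. Leaving out each of the 8 lists in turn kept the call in 8 fits for the *EREG* domain, in 6 for *EGFR*, in 5 for the *AREG* promoter and for the region at 99.3 kb, and in 3 for *TGFA*, for the region upstream of *AREG* and for the region at 29.6 kb, which ran from 1.42 without RAD21 line 0 h replicate 2 to 3.05. Both WT 0 h lists and 1 of the 2 WT 1 h lists lack input in their peak names, and the RAD21 line lists all carry it. The part of this form in the differences was not tested beyond values within a form. For this contrast those are given above only for the *TGFA* region, the *EGFR* region, the *EREG* domain and the *AREG* promoter.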

How the results depend on the processing

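Ranking by fold enrichment called 0 members for the 1 h change of either line, for the lines compared after 1 h and for the difference of the 1 h changes, and 11 for the lines compared at 0 h. With a term for the form of the peak names the counts were 2 at 10 h, 9 between the lines at 0 h and 13 at 1 h, and within one form the last was 13. Under that term the *BTC* region at 134.9 kb turned from 0.74 to −0.21 at 10 h. Within one form, 10 h against WT 1 h replicate 2 turned to −0.06 at the *EREG* promoter, −0.13 upstream of *AREG*, −0.17 at *EGFR* 46.6 kb and −0.25 at *EGFR* 114.3 kb. The cause was not tested.

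For H3K27ac regions called only in the first and only in the second group, a −log10 q-value of 5 gave 0 and 0 (WT 1 h), 5 and 0 (WT 10 h), 7 and 1 (RAD21 line 1 h), 5 and 2 (lines at 0 h) and 2 and 0 (lines at 1 h), and 0 for H3K4me1 in all 4 counts. Peaks covering 50% of a region gave 3 only at WT 0 h against 1 h, 25 and 4 at 10 h, and 21 and 14 only in the RAD21 line at 0 h and 1 h, and 8 for H3K4me1 only at 1 h. A window of 50 kb gave 0 only at WT 0 h against 1 h, 7 only at WT 10 h, 2 only at RAD21 line 0 h, 2 and 0 only in WT at 0 h and 1 h, and 1 and 1 for H3K4me1 only at 0 h against 1 h and only at 10 h. Counts of active enhancers stayed within 1.5 times.

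When each list was left out, a single list stood for its group, and the rank fits assumed that it varies like the other groups. The rule for regions called only in one group was looser then, so those counts could stay or rise but not fall. For the first and second group they were 4 to 24 and 1 to 7 (WT 1 h), 14 to 20 and 2 to 10 (WT 10 h), 12 to 27 and 4 to 19 (RAD21 line 1 h), 10 to 23 and 5 to 10 (lines at 0 h) and 6 to 20 and 1 to 15 (lines at 1 h). For H3K4me1 they were 6 to 16 and 4 to 9 at 1 h, and 2 to 10 and 4 to 14 at 10 h. Rank calls were 9 to 19 (WT 1 h), 6 to 6 (WT 10 h), 5 to 6 (RAD21 line 1 h), 8 to 12 (lines at 0 h), 1 to 17 (lines at 1 h), 7 to 22 (difference of the 1 h changes) and 0 for H3K4me1. Of 46 named changes, 12 kept their call in every such fit.

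Same-numbered lists did not deviate together (r from −0.0501 to 0.0453 over 13 pairs of groups). The numbers followed the sample labels, and those inside some peak names differ from them. In the RAD21 line at 0 h, both labelled replicates carry the number 1 in their peak names. Whether lists of different groups shared a culture or a batch therefore cannot be told. A replicate block gave 14 and 13 rank calls for WT at 1 h and 10 h, 11 for the RAD21 line after 1 h, 16 for the lines compared at 0 h, 7 for the same at 1 h, 16 for the difference of the 1 h changes and 0 for H3K4me1, and 5 of the 46 named changes were lost. Peak lists hold no reads below the caller's threshold, so a region without a peak may still carry signal, and ranks do not show a change shared by all regions.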
